A study of Homo sapiens with 24 samples.

Results

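The 9 genes described here write, erase and read N6-methyladenosine (m6A), a methyl mark on adenosines inside mRNA. They were picked by gene identifier from the count tables of a ribosome profiling study of colon cancer cells. They make up 9 of the 20426 genes that all 24 tables share, and all 9 passed the filter on low counts, as did 11938 genes in all. In ribosome profiling, mRNA stretches shielded from nuclease by ribosomes (footprints, labelled RPF) are sequenced beside the RNA of the same cells (labelled INPUT). Footprints relative to RNA give the translational efficiency (TE) of a gene, which the study compared between cancer lines and normal colon cells.

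The study profiled 6 cell populations, with 2 RPF and 2 INPUT libraries each. HCT116, HCT15 and SW620 are established colon cancer cell lines, all labelled wild type. HCT15 cells labelled COPS7B overexpression (the COPS7B line) were set against HCT15 cells labelled PLVX and wild type (the vector line). The COPS7B protein belongs to the COP9 signalosome, which removes NEDD8 from cullin ubiquitin ligases. The 841CON population is labelled a wild-type cell of the normal colon epithelium, and its cell type was not checked against markers here. All cells received cycloheximide, which halts elongating ribosomes, at 100 µg/mL for 10 minutes. The lines grew in different media, SW620 without added CO2, so line and culture cannot be told apart. The labels do not say whether the COPS7B and vector lines were clones or pools, or whether replicates were separate cultures, so the p-values measure only the spread between these libraries.

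In the m6A pathway, METTL3 is the catalytic subunit of the writer complex, METTL14 its RNA-binding partner and WTAP the adaptor that holds the pair in nuclear speckles. The readers carry a YTH domain that grips the methylated base. YTHDC1 acts in the nucleus on splicing and export, and the cytoplasmic YTHDF1, YTHDF2 and YTHDF3 bind methylated mRNAs, with YTHDF2 known for recruiting deadenylases. FTO and ALKBH5 are dioxygenases that remove the methyl group. The mark and these proteins have been studied widely in colorectal cancer, but neither m6A nor protein was measured here.

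Depth differed widely between libraries. INPUT libraries held 1237231 to 9105954 counts in genes and RPF libraries 84262 to 4679279, the SW620 RPF libraries being the shallowest at 98043 and 84262. The replicate libraries of 4 pairs (HCT116 INPUT, HCT116 RPF, COPS7B RPF and 841CON RPF) were nearly alike, with a chi-square per gene of 1.39 to 1.70 times its value under sampling noise. In the other 8 pairs this ratio was 4.12 to 63.9, and it was highest in 841CON INPUT. Because these INPUT libraries enter every RNA and TE comparison with 841CON, calls are given with and without them where that matters. Levels are CPM, that is, counts scaled to the library's total over tested genes with edgeR's TMM factors, computed within each assay. These factors do not fix the median gene at no change. In HCT116 against 841CON, the median log2 change over all tested genes was -0.25 for footprints and -0.59 for TE. TE levels are ratios of the mean footprint CPM to the mean RNA CPM. Changes are log2 values ± SE from edgeR's quasi-likelihood test, and a gene was called at a Benjamini-Hochberg adjusted p under 0.05 over all tested genes. Gene lengths were not used, so levels are compared between populations and never between genes.

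**Figure D1:**
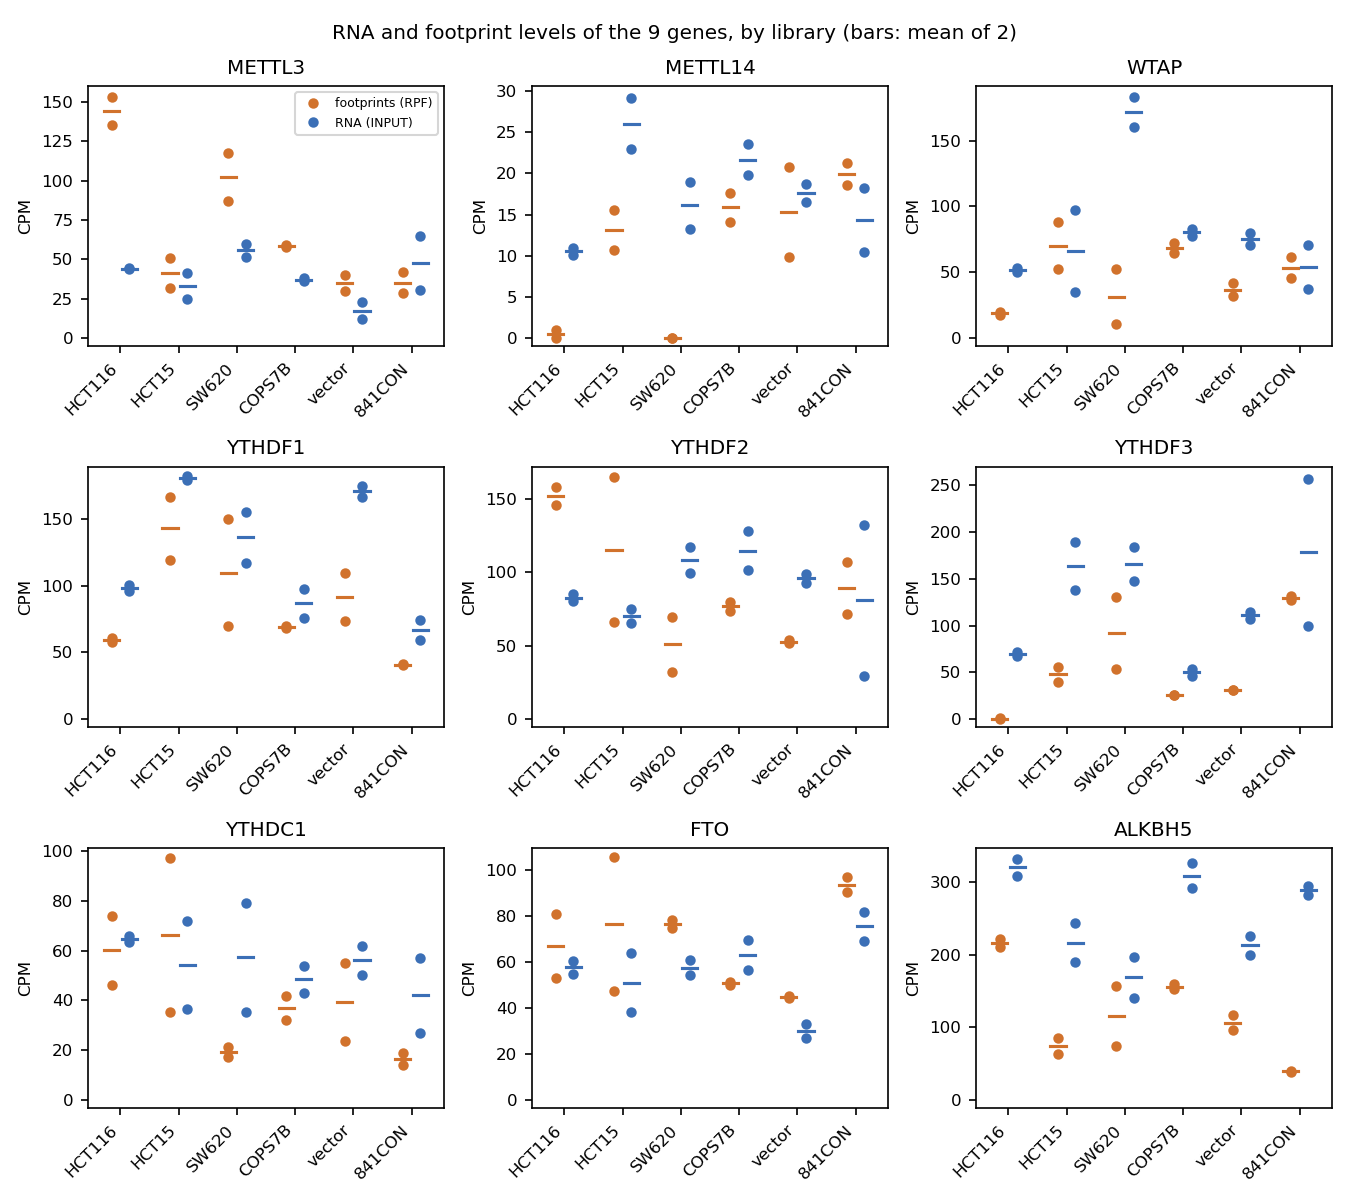
Level of each of the 9 genes in every library, in CPM on a linear axis, for footprints (orange) and RNA (blue), with a bar at the mean of the 2 libraries. YTHDF3 and METTL14 footprints lie at or near 0 in HCT116, METTL3 footprints are high in HCT116, and ALKBH5 footprints are lowest in 841CON.

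Promoter sequence is shown for 2 of the genes, YTHDF1, whose RNA was called in HCT15 and SW620 against 841CON and in the COPS7B line against the vector line, and ALKBH5, whose footprints but not RNA were higher in each cancer line. Each line gives the 250 bases upstream of the annotated start, 5′ to 3′ on the gene's strand, from RefSeq on build GRCh38.p14, matched by symbol. Capitals mark GC boxes (GGGCGG), E-boxes (CACGTG) and CCAAT boxes (CCAAT), each searched on both strands, so that a GC box on the other strand reads CCGCCC.
YTHDF1, chr20:63216132-63216381, minus strand: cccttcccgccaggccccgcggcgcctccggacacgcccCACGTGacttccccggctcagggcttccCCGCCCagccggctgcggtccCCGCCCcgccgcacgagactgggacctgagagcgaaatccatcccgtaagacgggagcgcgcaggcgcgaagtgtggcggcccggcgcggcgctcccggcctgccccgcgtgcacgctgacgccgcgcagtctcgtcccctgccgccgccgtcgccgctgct
ALKBH5, chr17:18183578-18183827, plus strand: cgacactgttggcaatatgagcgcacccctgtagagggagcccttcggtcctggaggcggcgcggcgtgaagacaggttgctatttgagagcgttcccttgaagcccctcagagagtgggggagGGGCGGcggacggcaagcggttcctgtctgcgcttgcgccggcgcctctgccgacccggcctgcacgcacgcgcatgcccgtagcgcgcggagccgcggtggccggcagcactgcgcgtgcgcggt
The YTHDF1 window held 2 GC boxes and 1 E-box, and 77.6% of its bases were G or C. The ALKBH5 window held 1 GC box. Of 35116 human windows of the same length, 42.6% held a GC box, 6.35% an E-box and 32.0% a CCAAT box. Windows were found for 8 of the 9 genes. WTAP and YTHDF2 each had 2 windows, of which only the first listed was searched. METTL14 and WTAP each held 1 CCAAT box, GC boxes were also present for WTAP, YTHDF2 and YTHDC1, and METTL3 and FTO held none of these letters. A match is a string of letters and not evidence of binding.

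HCT116 differed from 841CON mainly in footprints. Footprints of 6 of the 9 genes were called, METTL3, YTHDC1 and ALKBH5 higher and METTL14, WTAP and YTHDF3 lower, where 59.3% of all 11938 tested genes were called. RNA was called for YTHDF3 alone, against 40.1% of all genes. TE was called for 4 of the 9, METTL3 and ALKBH5 higher and METTL14 and YTHDF3 lower, against 45.6% of 8502 genes with enough RNA for the TE test. The footprint and TE shares among the 9 were thus near those of all genes. The median log2 change of the 9 was -0.03 for RNA, 0.55 for footprints and -0.02 for TE, beside -0.04, -0.25 and -0.59 over all tested genes. In bulk libraries, a change in the share of cells and a change in RNA or ribosomes per cell cannot be told apart.

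The clearest of these was YTHDF3 (ENSG00000185728), a cytoplasmic reader with RNA in the HCT116 INPUT libraries and almost no footprint in the HCT116 RPF libraries. HCT116 had 0 and 1 footprint counts, against 342 and 170 in 841CON, and RNA of 67.3 and 71.9 CPM in HCT116 against 100.0 and 257 CPM in 841CON. HCT116 lay below 841CON in both assays without overlap. Pooled over the libraries, footprints were 260.3-fold lower in HCT116, with a 95% exact interval of 46.5 to 10301 that covers counting error only. TE was 102-fold lower on the same counts, with an interval of 18.2 to 4019.9 that takes the ratio of mean RNA CPM as fixed. The fitted changes were -7.87 ± 0.74 for footprints (adjusted p = 1.22e-07) and -6.50 ± 0.92 for TE (adjusted p = 2.58e-05), and both calls held under all 11 and all 15 alternative settings. The RNA change of -1.37 ± 0.41 (adjusted p = 0.0117) was less firm. It was -0.52 without 841CON INPUT replicate 2 (adjusted p = 0.33), and the call was also lost without HCT116 INPUT replicate 1 (0.102) or 2 (0.0856), with only the compared libraries (0.0532) and with nearly alike pairs summed (0.181), within a range of 0.000378 to 0.33 over its 11 alternatives.

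The share of genes with RNA but almost no footprints was highest in HCT116. Among tested genes whose INPUT counts averaged 50 or more, those with 0 or 1 footprint count in both libraries together numbered 865 of 6350 (13.6%) in HCT116. The share was 0.427% in HCT15, 4.00% in SW620, 0% of 8646 in the COPS7B line, 3 of 6663 in the vector line and 3.40% in 841CON. YTHDF3 was one of these 865, and by fitted change its TE was the 1023rd lowest of 8502. HCT116 RPF libraries together held 2010595 counts, fewer than those of 841CON (5205341) and more than those of SW620 (182305), where YTHDF3 had 15 and 5 footprint counts. Some tested genes showed the opposite in HCT116, many footprints with almost no RNA, and such genes were not counted in any population. Whether the HCT116 INPUT and RPF libraries came from the same cells was not tested, and the HCT116 TE results assume it. The part of the footprint dropout in the YTHDF3 result was not tested either. How reads shared by the similar YTHDF1, YTHDF2 and YTHDF3 sequences were counted is not given in the sources used here, so the split between these 3 genes is uncertain.

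**Figure D2:**
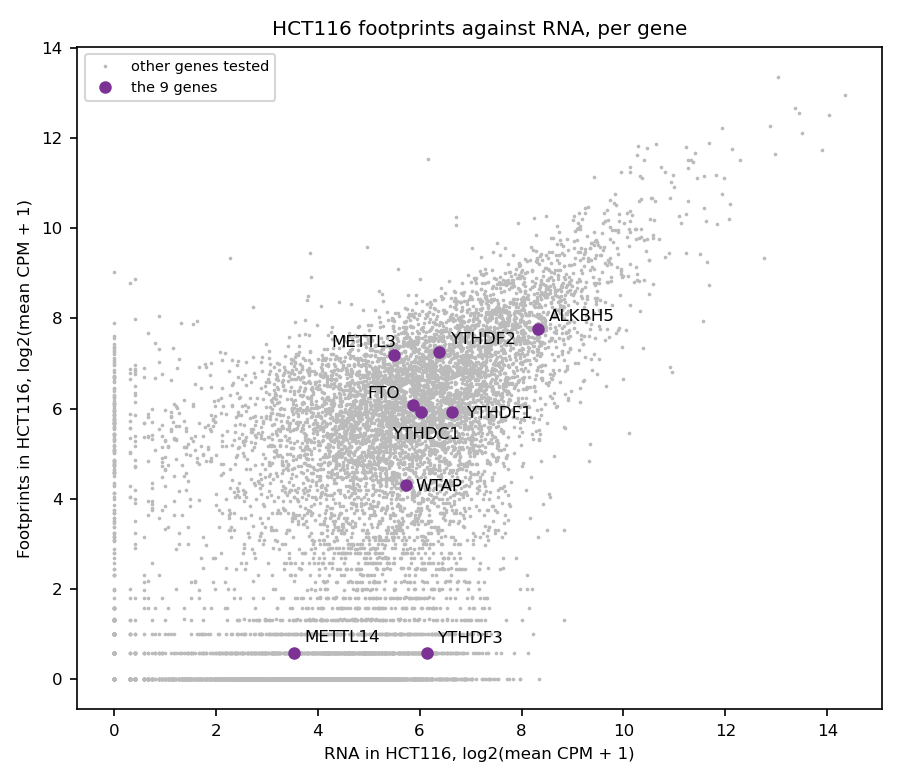
Mean footprint level against mean RNA level in HCT116 for all 11938 tested genes, both as log2(mean CPM + 1), with the 9 genes as large points. YTHDF3 and METTL14 lie in the band of genes with a single footprint count, just above the genes at 0, while the other 7 lie within the main cloud.

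Among the writers, METTL3 (ENSG00000165819, chr14:21498138-21511340), the methyltransferase itself, had more footprints in HCT116. Its footprints were 153 and 136 CPM in HCT116, against 41.9 and 28.7 CPM in 841CON, while RNA was 44.4 and 44.0 CPM in HCT116, against 64.7 and 30.6 CPM in 841CON. Footprints of the 2 populations did not overlap, whereas the RNA values of HCT116 fell between those of 841CON. Footprints rose by 2.02 ± 0.45 (adjusted p = 0.000696), and the RNA change was -0.08 with a 95% interval of -0.99 to 0.84. TE, 3.27 in HCT116 against 0.740 in 841CON, rose by 2.10 ± 0.62 (adjusted p = 0.00989). Both calls were lost when nearly alike pairs were summed, with adjusted p of 0.0722 for footprints and 0.225 for TE, and held in their other 10 and 14 alternatives (adjusted p from 0.000141 and 0.00162).

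METTL14 (ENSG00000145388, chr4:118685392-118715430), the partner of METTL3, moved the other way in HCT116. It had 1 and 0 footprint counts in HCT116, against 57 and 24 in 841CON, with RNA of 10.1 and 11.0 CPM in HCT116 against 10.5 and 18.2 CPM in 841CON. Footprints did not overlap and RNA did. The pooled footprint level was 41.2-fold lower in HCT116 (95% exact interval for counting error 7.18 to 1646). The pooled TE was 30.3-fold lower (5.28 to 1210.5, again with the ratio of mean RNA CPM taken as fixed). The fitted changes were -5.18 ± 1.00 for footprints (adjusted p = 0.000232) and -4.71 ± 1.23 for TE (adjusted p = 0.00476). The footprint call held in all 11 alternatives. The TE call was lost with nearly alike pairs summed (adjusted p = 0.0655, in a range of 0.00327 to 0.0655). RNA counts were low, at 15 and 22 in the HCT116 libraries, and the RNA change of -0.47 had an interval of -1.86 to 0.92. Its TE change was the 1622nd lowest of 8502. Its INPUT counts were too low for it to be among the 6350 genes over which the footprint dropout of HCT116 was counted.

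WTAP (ENSG00000146457, chr6:159726693-159756319), the adaptor, had 20.0 and 17.7 footprint CPM in HCT116, against 61.3 and 45.7 CPM in 841CON. RNA was 53.2 and 50.5 CPM in HCT116, against 70.4 and 37.7 CPM in 841CON. Footprints did not overlap and RNA did. Footprints fell by 1.51 on the log2 scale (SE 0.50, adjusted p = 0.0143), and this call was lost without 841CON RPF replicate 1 (-1.27, adjusted p = 0.0923), without HCT116 RPF replicate 1 (0.0591) or 2 (0.0878) and with nearly alike pairs summed (0.123, the highest of 11). The TE change of -1.47 ± 0.68 did not pass (adjusted p = 0.0846, interval -2.90 to -0.05), but passed in DESeq2 (-1.70, 0.0302) and without 841CON INPUT replicate 1 (-2.0, 0.0205).

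ALKBH5 (ENSG00000091542, chr17:18183828-18209954), a demethylase, had the most footprints in HCT116 of the 6 populations. It had 221 and 210.3 footprint CPM in HCT116, against 38.9 and 40.3 CPM in 841CON, and RNA of 308 and 332 CPM in HCT116 against 295 and 283 CPM in 841CON. All HCT116 footprint values lay above those of 841CON. Footprints rose by 2.45 ± 0.32 (adjusted p = 3.7e-06), a call that held in all 11 alternatives, while the RNA change was 0.15 with an interval of -0.47 to 0.76. TE, 0.674 in HCT116 and 0.137 in 841CON, rose by 2.30 ± 0.43 (adjusted p = 0.000324). The TE call was lost with nearly alike pairs summed (adjusted p = 0.0601) and held in the other 14 alternatives (adjusted p from 1.16e-06).

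The nuclear reader YTHDC1 (ENSG00000083896, chr4:68310387-68350090) had 74.1 and 46.2 footprint CPM in HCT116, against 19.1 and 13.9 CPM in 841CON, without overlap. Footprints rose by 1.85 ± 0.59 (adjusted p = 0.0105). The call was lost without 841CON RPF replicate 2 (1.66, adjusted p = 0.0768), without HCT116 RPF replicate 1 (1.47, 0.0914) and with nearly alike pairs summed (0.159, the highest of 11). Neither its RNA change of 0.66 (interval -0.50 to 1.81) nor its TE change of 1.19 (-0.48 to 2.86) passed. The remaining 3 genes, YTHDF1, YTHDF2 and FTO, were called in none of the HCT116 tests. With no TMM, YTHDF1 footprints passed (0.92, adjusted p = 0.0198, against a change of 0.55 that did not pass with TMM). Their TE changes were -0.02 for YTHDF1 (interval -1.02 to 0.97), 0.77 for YTHDF2 (-0.68 to 2.21) and -0.10 for FTO (-1.24 to 1.05), and these intervals include changes of about 2-fold.

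**Figure D3:**
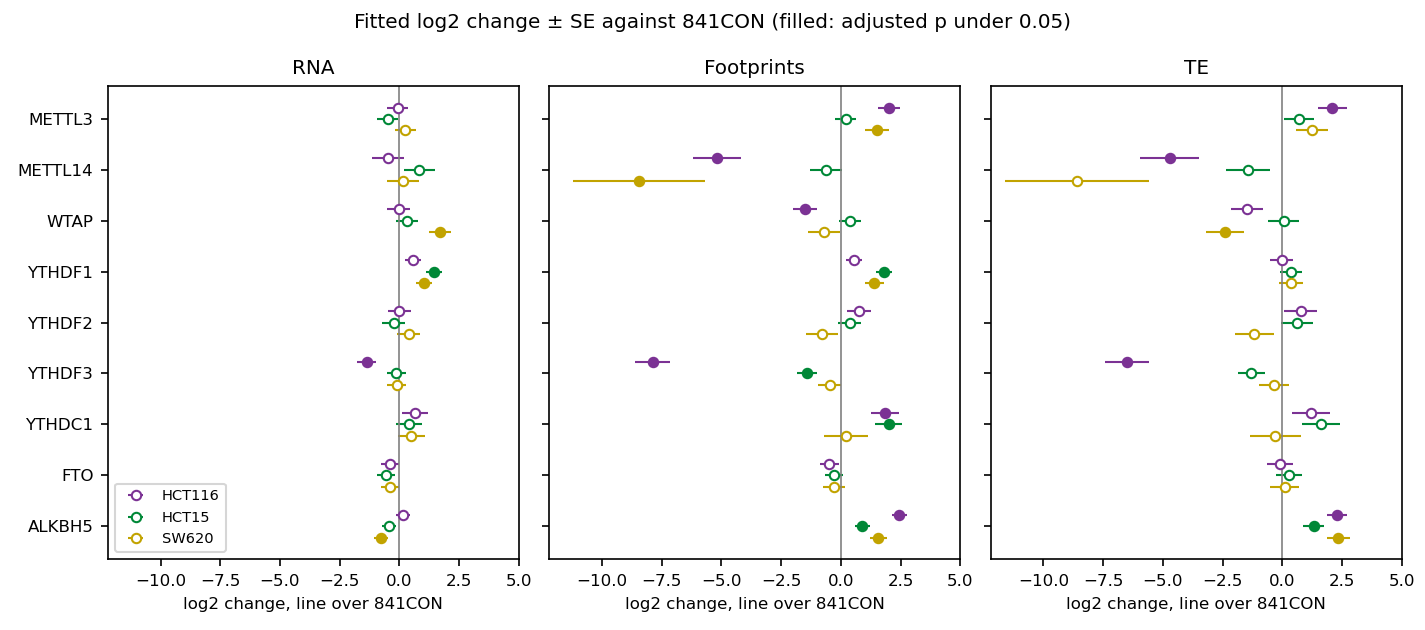
Fitted log2 change ± SE of RNA, footprints and TE for each gene in HCT116 (purple), HCT15 (green) and SW620 (yellow) over 841CON, filled where the adjusted p was under 0.05. The 3 lines share the 841CON libraries, and the SW620 points of METTL14 rest on 0 footprint counts and are no estimate of size.

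HCT15 and SW620 were compared with the same 841CON libraries, so errors in those libraries enter all 3 comparisons alike. In HCT15, RNA was called for 1 of the 9 genes (YTHDF1, higher), against 35.4% of all tested genes. Footprints were called for 4 (YTHDF1, YTHDC1 and ALKBH5 higher, YTHDF3 lower), against 49.9%, and TE for 1 (ALKBH5, higher), against 16.7%. In SW620, RNA was called for 3 (WTAP and YTHDF1 higher, ALKBH5 lower), against 44.4%, footprints for 4 (METTL3, YTHDF1 and ALKBH5 higher, METTL14 lower), against 37.8%, and TE for 2 (ALKBH5 higher, WTAP lower), against 18.1%. Median changes of the 9 in HCT15 were -0.13, 0.38 and 0.37 for RNA, footprints and TE, beside -0.02, 0.27 and 0.30 over all tested genes. In SW620 they were 0.25, -0.29 and -0.29, beside 0.03, -0.09 and -0.28.

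YTHDF1 (ENSG00000149658, chr20:63195429-63216131), a cytoplasmic reader, was higher in RNA and footprints together in HCT15 and SW620. RNA was 179 and 182 CPM in HCT15 and 117 and 155 CPM in SW620, against 74.3 and 59.2 CPM in 841CON. Footprints were 119.6 and 166 CPM in HCT15 and 69.7 and 149.6 CPM in SW620, against 41.1 and 40.3 CPM in 841CON. Every library of both lines exceeded both 841CON libraries of its assay. In HCT15, RNA rose by 1.44 ± 0.33 (adjusted p = 0.00205) and footprints by 1.81 ± 0.34 (adjusted p = 0.000226), and both calls held in all 11 alternatives. TE did not pass in HCT15, at 0.37 with an interval of -0.59 to 1.33.

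In SW620, RNA of YTHDF1 rose by 1.04 ± 0.33 (adjusted p = 0.0148) and footprints by 1.40 ± 0.40 (adjusted p = 0.0103), footprints resting on 8 and 14 counts. The RNA call was lost without 841CON INPUT replicate 2 (0.88, adjusted p = 0.071) and without SW620 INPUT replicate 2 (0.82, 0.119, the highest of 11). It was also lost with no filter (0.052), with only the compared libraries (0.0784) and with nearly alike pairs summed (0.0707). The footprint call was lost without SW620 RPF replicate 2 (0.76, adjusted p = 0.332) and with nearly alike pairs summed (0.116). TE changed by 0.36 without passing (interval -0.71 to 1.43).

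ALKBH5 footprints were higher in all 3 cancer lines than in 841CON, where its TE was the lowest of the 6 populations. Footprints were 85.0 and 63.6 CPM in HCT15 and 157 and 74.8 CPM in SW620, against 38.9 and 40.3 CPM in 841CON. RNA was 189.6 and 244 CPM in HCT15 and 197 and 141 CPM in SW620, against 295 and 283 CPM in 841CON. Both lines thus lay above 841CON in footprints and below it in RNA, with no overlap. Footprints rose by 0.90 ± 0.31 in HCT15 (adjusted p = 0.0210) and by 1.57 ± 0.37 in SW620 (adjusted p = 0.00267). TE, at 0.343 in HCT15 and 0.686 in SW620 against 0.137 in 841CON, rose by 1.32 ± 0.43 (adjusted p = 0.0400) and 2.35 ± 0.48 (adjusted p = 0.00297). RNA fell by 0.78 in SW620 (SE 0.30, adjusted p = 0.0406), and in HCT15 the RNA change of -0.42 did not pass (interval -1.03 to 0.20).

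These ALKBH5 calls were unequal in how far they depended on single choices. In HCT15, the TE call was lost in 11 of 15 alternatives (adjusted p 0.0307 to 0.437), among them the removal of 841CON INPUT replicate 1 (1.17), 841CON RPF replicate 1 (1.29) or 2 (1.35), HCT15 INPUT replicate 1 (0.93) or HCT15 RPF replicate 1 (1.10). The replicate block also ended it (adjusted p = 0.0752). The HCT15 footprint call was lost in 7 of 11 (0.00564 to 0.258), among them without 841CON RPF replicate 1 (0.88) or 2 (0.93) or HCT15 RPF replicate 1 (0.69). In SW620, the RNA call was lost in 8 of 11 (0.00645 to 0.264), among them without either 841CON INPUT library (-0.80 and -0.81) or SW620 INPUT replicate 2 (-0.55). The SW620 TE call was lost in 3 of 15 (up to 0.072), including without SW620 RPF replicate 1 (1.68, 0.0601), and the footprint call in 2 of 11, including without that library (0.91, 0.281).

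YTHDF3 was also lower in footprints in HCT15, at 39.6 and 56.2 CPM in HCT15 against 128 and 132 CPM in 841CON, without overlap. The change was -1.42 ± 0.41 (adjusted p = 0.00766) and was lost without HCT15 RPF replicate 1 (-1.21, adjusted p = 0.0553), with only the compared libraries (0.0506) and with nearly alike pairs summed (0.056, the highest of 11). RNA of 190.0 and 138 CPM in HCT15 lay within the 841CON range, and the RNA change was -0.13 (interval -0.96 to 0.70). The TE change of -1.29 ± 0.57 did not pass (adjusted p = 0.128), but passed without 841CON INPUT replicate 2 (-2.14, adjusted p = 0.00694) and in DESeq2 (-1.61, 0.0244). In SW620, YTHDF3 changed in no test, with a TE change of -0.35 (interval -1.67 to 0.97).

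YTHDC1 had 35.4 and 97.0 footprint CPM in HCT15, against 19.1 and 13.9 CPM in 841CON, and rose by 2.0 ± 0.58 (adjusted p = 0.00754). Its HCT15 libraries differed 2.74-fold from each other. Without HCT15 RPF replicate 2 the change was 1.08 (adjusted p = 0.177, the highest of 11). The call was also lost without 841CON RPF replicate 2 (1.81, 0.0689), with only the compared libraries (0.0832) and with nearly alike pairs summed (0.125). In SW620 it had 2 footprint counts in each library, too few to show a difference of the size seen in HCT15, with a footprint change of 0.20 (interval -1.73 to 2.14).

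The writers in SW620 rested on few footprint counts. WTAP RNA was 160.5 and 183 CPM in SW620, against 70.4 and 37.7 CPM in 841CON, the highest RNA level of the 6 populations and a rise of 1.69 ± 0.47 (adjusted p = 0.00644). Without 841CON INPUT replicate 2 it was 1.29 (adjusted p = 0.0569, the highest of 11). WTAP footprints were 6 and 1 counts in SW620, 7 in all with a Poisson 95% interval of 2.81 to 14.4, and their change of -0.70 did not pass (interval -2.09 to 0.68). TE, 0.183 in SW620 against 0.990 in 841CON, changed by -2.40 ± 0.80 (adjusted p = 0.0422). That call was lost in 11 of 15 alternatives (adjusted p 0.0171 to 0.188), including the replicate block (0.092) and the removal of 841CON INPUT replicate 2 (-1.99), 841CON RPF replicate 1 (-2.17) or 2 (-2.59), SW620 INPUT replicate 1 (-2.47) or 2 (-2.30) or SW620 RPF replicate 2 (-1.74).

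METTL3 had 10 and 11 footprint counts in SW620, or 87.1 and 118 CPM, against 41.9 and 28.7 CPM in 841CON, without overlap. Footprints rose by 1.52 ± 0.51 (adjusted p = 0.0245). The call was lost in 5 of 11 alternatives (0.00328 to 0.202), including without 841CON RPF replicate 2 (1.27, 0.127) and without SW620 RPF replicate 1 (1.71, 0.0579) or 2 (1.28, 0.152). The TE change of 1.26 ± 0.67 did not pass (adjusted p = 0.195). In HCT15, METTL3 changed in no test, with a footprint change of 0.21 (interval -0.70 to 1.13) and a TE change of 0.70 (-0.59 to 1.98).

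METTL14 had no footprint count in either SW620 library, against 57 and 24 in 841CON. With a floor of 3 counts over the 2 SW620 libraries, equal to 14.4 CPM, its footprints were at least 1.42-fold lower and its TE at least 1.60-fold lower than in 841CON. The fit called the footprints (adjusted p = 0.0226), but the call was lost in 8 of 11 alternatives (0.0233 to 0.143), including without either SW620 RPF library (0.143 and 0.0942) or 841CON RPF replicate 1 (0.0521), and TE did not pass (adjusted p = 0.056) except without 841CON INPUT replicate 2 (0.0362). SW620 RNA of METTL14 was 13.3 and 19.0 CPM, against 10.5 and 18.2 CPM in 841CON. In HCT15, footprints were 15.6 and 10.6 CPM, near that SW620 floor, so SW620 and HCT15 could not be told apart at this depth. METTL14 in HCT15 was called in no test against 841CON.

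YTHDF2 (ENSG00000198492, chr1:28736624-28769775), the reader known for mRNA decay, was called in no comparison, and its 841CON RNA libraries differed more than those of any other of the 9 genes. RNA was 80.1 and 85.4 CPM in HCT116, 74.9 and 65.3 CPM in HCT15 and 99.6 and 117 CPM in SW620, against 29.5 and 132 CPM in 841CON. All 6 cancer values lay between the 2 values of 841CON, which differed 4.48-fold. Without 841CON INPUT replicate 2, RNA was called higher in HCT116 (1.49, adjusted p = 0.0259) and SW620 (1.88, 0.00532), and TE lower in SW620 (-2.66, 0.0108). Without 841CON INPUT replicate 1, TE was called higher in HCT116 (1.40, 0.0373). Footprints were 158 and 145 CPM in HCT116, 65.8 and 165 CPM in HCT15 and 69.7 and 32.1 CPM in SW620, against 107 and 71.3 CPM in 841CON.

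FTO (ENSG00000140718, chr16:53703963-54121941), the other demethylase, was also called in no comparison with 841CON. Its RNA was 60.6 and 54.9 CPM in HCT116, 38.1 and 63.9 CPM in HCT15 and 54.2 and 60.9 CPM in SW620, against 81.9 and 69.3 CPM in 841CON. All 6 cancer values were below both 841CON values, but the RNA changes were -0.38, -0.57 and -0.38, with intervals that included 0 (from -1.37 to 0.43 over the 3). Footprints were 81.1 and 53.1 CPM in HCT116, 47.4 and 106 CPM in HCT15 and 78.4 and 74.8 CPM in SW620, against 90.4 and 96.9 CPM in 841CON. The 3 TE changes were -0.10, 0.29 and 0.10, with intervals from -1.24 to 1.42.

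Among the 3 cancer lines themselves, an F test called RNA of WTAP (adjusted p = 0.00833), YTHDF3 (0.0291) and ALKBH5 (0.0401), against 46.0% of all tested genes. Footprints were called for 6 of the 9, METTL3 (0.0051), METTL14 (0.00119), WTAP (0.00801), YTHDF1 (0.00904), YTHDF3 (2.67e-06) and ALKBH5 (0.000831), against 66.1%. TE was called for METTL14 (0.0453), WTAP (0.028) and YTHDF3 (0.000216), against 52.7% of 8304 genes. The YTHDF3 call for TE held in every alternative run. The METTL14 call was lost in every alternative except the removal of HCT116 RPF replicate 1 or of HCT15 RPF replicate 2. The WTAP call was lost in DESeq2, with no TMM, with only the compared libraries, under the replicate block and with nearly alike pairs summed. It was also lost without HCT116 INPUT replicate 1, HCT15 INPUT replicate 2, HCT15 RPF replicate 2, SW620 INPUT replicate 2 or SW620 RPF replicate 2. Of the RNA calls, WTAP alone was called without either HCT116 INPUT library, YTHDF3 was lost without HCT15 INPUT replicate 1, and none was called without SW620 INPUT replicate 2 or with nearly alike pairs summed. ALKBH5 RNA was also lost with TMM over all libraries, with no TMM, with no filter and with only the compared libraries. For ALKBH5 and METTL3, TE differed from 841CON in HCT116 as given above, but the difference among the lines did not pass (0.0811 and 0.141). ALKBH5 did pass in DESeq2, with no TMM, and without HCT15 INPUT replicate 1, SW620 INPUT replicate 1 or SW620 RPF replicate 2.

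In the order of levels, YTHDF3 footprints stood lowest in HCT116, below SW620 with a pooled fold of 194 (95% exact interval for counting error 31.0 to 8024) and below HCT15 with a fold of 105 (18.6 to 4148). SW620 and HCT15 followed each other without a called difference. METTL3 footprints stood highest in HCT116, 1.81 ± 0.44 above HCT15 (adjusted p = 0.00205) and not distinguishable from SW620 (0.51, interval -0.52 to 1.53). ALKBH5 footprints were 1.54 ± 0.31 higher in HCT116 than in HCT15 (adjusted p = 0.00036). Its RNA was 0.93 ± 0.30 higher in HCT116 than in SW620 (0.0208). Footprints of METTL14 (-4.56 ± 1.01, 0.001), WTAP (-1.90 ± 0.50, 0.0037) and YTHDF1 (-1.27 ± 0.33, 0.00366) were lower in HCT116 than in HCT15. So was METTL14 TE (-3.26 ± 1.25, 0.0405), from 1 HCT116 footprint count. WTAP TE was lower in SW620 than in HCT15 (-2.46 ± 0.79, 0.0488). Pairs of cancer lines were not run under the alternatives. WTAP RNA was 1.36 ± 0.46 higher in SW620 than in HCT15 (adjusted p = 0.0365) and 1.73 ± 0.47 lower in HCT116 than in SW620 (0.00751). Across all 6 populations, the highest and lowest mean RNA levels differed 3.57-fold for YTHDF3, 3.31-fold for WTAP and 3.18-fold for METTL3, and 1.54-fold for YTHDC1, whose replicate RNA libraries differed by up to 2.24-fold within SW620.

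COPS7B-overexpressing HCT15 cells differed from vector cells in the RNA of 1 of the 9 genes, where 17.5% of all tested genes were called. YTHDF1 RNA was 75.8 and 97.8 CPM in the COPS7B line, against 166 and 175 CPM in the vector line, without overlap. It fell by 0.97 on the log2 scale (SE 0.32, adjusted p = 0.0428). This call was lost in 7 of 11 alternatives (adjusted p 0.00304 to 0.278), including the removal of either COPS7B INPUT library (-0.80 and -1.17) or either vector INPUT library (-1.01 and -0.93). YTHDF1 footprints were 69.5 and 68.7 CPM in the COPS7B line, against 109.6 and 73.3 CPM in the vector line, and did not pass (-0.41, interval -1.08 to 0.27).

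A further 3 genes had an unadjusted p under 0.05 for RNA without passing the adjustment. YTHDF3 RNA was 46.2 and 53.8 CPM in the COPS7B line, against 108 and 115 CPM in the vector line (-1.15 ± 0.41, adjusted p = 0.0615). FTO RNA was 56.6 and 69.5 CPM in the COPS7B line, against 27.2 and 33.0 CPM in the vector line (1.08 ± 0.40, adjusted p = 0.0709). METTL3 RNA was 36.4 and 38.1 CPM in the COPS7B line, against 23.2 and 11.9 CPM in the vector line (1.05 ± 0.45, adjusted p = 0.130). In each of the 3, the values of the 2 lines did not overlap, and DESeq2 called FTO (1.09, 0.0398) and YTHDF3 (-1.14, 0.0284) but not METTL3. FTO also passed with no TMM (1.22, 0.0364), YTHDF3 with TMM over all libraries (-1.26, 0.0413), and both with only the compared libraries (1.03, 0.0127, and -1.20, 0.00245).

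Neither footprints nor TE of the 9 genes was called between the COPS7B and vector lines. Footprints of 17.3% of all tested genes passed, and of the 9 none did, also at an unadjusted p under 0.05 and in DESeq2. WTAP had the largest footprint change, 72.5 and 64.5 CPM in the COPS7B line against 32.2 and 41.6 CPM in the vector line (0.90 ± 0.47, adjusted p = 0.216), and it was called with only the compared libraries (0.89, adjusted p = 0.0203). For TE, 0% of the 9542 tested genes passed in edgeR and 0 in DESeq2, with 132 at an unadjusted p under 0.05, none of them among the 9. The TE changes ran from -0.90 for FTO (interval -2.06 to 0.26) to 0.91 for YTHDF3 (-0.32 to 2.14). The median changes of the 9 were 0.26, 0.18 and 0.13 for RNA, footprints and TE, beside 0.08, 0.05 and -0.03 over all tested genes.

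**Figure D4:**
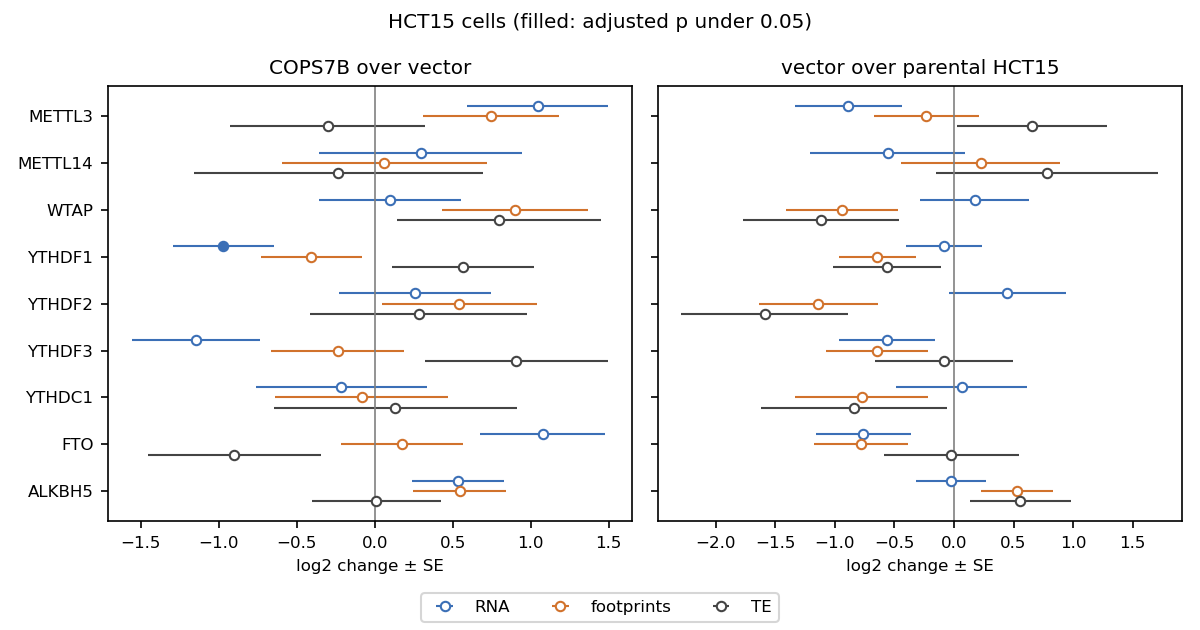
Fitted log2 change ± SE of RNA (blue), footprints (orange) and TE (grey) of each gene for the COPS7B line over the vector line (left) and the vector line over parental HCT15 (right), with different axis ranges. One point is filled (adjusted p under 0.05), RNA of YTHDF1 in the COPS7B line at -0.97.

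Vector cells were also set against parental HCT15, since these differ by the vector and its culture alone, as far as the labels say. The vector tables, but not those of parental HCT15, hold lines that name no gene. A difference in processing therefore cannot be told apart from the vector. None of the 9 genes was called, against 0.670% of all tested genes for RNA, 10.5% for footprints and 0.175% for TE. At an unadjusted p under 0.05, 0 of the 9 stood out for RNA, and YTHDF2 alone for footprints and for TE. DESeq2 called none of the 9 in any of the 3. YTHDF2 footprints were 53.8 and 51.6 CPM in the vector line, against 65.8 and 165 CPM in parental HCT15 (-1.14 ± 0.50, adjusted p = 0.146). Without HCT15 RPF replicate 1, footprints of YTHDF2 (-1.64, adjusted p = 0.0334) and FTO (-1.23, 0.0315) were called. YTHDF1 RNA, which was lower in the COPS7B line, was 166 and 175 CPM in the vector line, against 179 and 182 CPM in parental HCT15 (-0.08, interval -0.75 to 0.59).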

How the data were processed

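The labels' protocols describe cycloheximide-treated cells, sucrose gradients, purification of protected fragments, removal of ribosomal RNA and small-RNA libraries, but are silent on the preparation of INPUT RNA. The authors deposited raw counts per Ensembl gene, 1 table per library, whole numbers not normalized. Tools and build named in the submitters' processing notes are cutadapt 3.5, STAR 2.7.9, HTSeq 2.0.2 and GRCh38. Not given in the sources used here are strand, annotation release and the handling of multiply aligned reads, so counts of paralogs and overlapping genes are uncertain. In the 8 COPS7B and vector libraries, lines that name no gene held 53.6% to 90.8% of reads and were left out. Among these, the line for reads not uniquely aligned held 16.6% to 27.2% of reads. Tables of the other libraries hold no such lines.

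Groups came from the labels (12 groups of 2 libraries). One edgeR 4.0.16 quasi-likelihood model (R 4.3.3) was fitted to all 24 libraries, with TMM within each assay, leaving 12 residual degrees of freedom. Genes had to pass filterByExpr with a minimum count of 10 among INPUT and among RPF libraries. TE was tested as the assay-by-line interaction where INPUT counts averaged 10 or more in each of the compared lines. Tests were two-sided. The fit was also run on counts simulated from its own means and dispersions, which cannot show whether the spread it assumes holds for these libraries. A mean ± SD over n = 2 libraries says little, so both values are printed. The biological coefficient of variation of the 9 genes was 0.192 (ALKBH5) to 0.378 (YTHDC1), and the median over tested genes was 0.371.

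Intervals on log2 changes are 95% intervals of the fit. Exact and Poisson intervals cover counting error of footprints only, since the reads carry no molecular identifiers and may be copies. For TE they take the ratio of mean RNA CPM as fixed. The floor of 3 counts is a set value and not the limit of an interval. Alternatives were DESeq2 1.42.0, TMM over all libraries, no TMM, no filter, only the compared libraries, the replicate block, nearly alike pairs (a ratio under 2) summed, and the removal of 1 library at a time, where the lone library left was taken to vary as the other groups do. Outside the replicate block, replicate numbers were not taken to pair INPUT with RPF libraries. The correlation of their deviations was over 0.1 in 1 of 6 lines (-0.137 to 0.260), the vector line. Nearly alike pairs leave little deviation to correlate, so these values do not settle whether the numbers pair libraries.

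All 9 genes are named, together with the tested genes whose RNA pattern was most like that of METTL3 or YTHDF1. The genes and lists were chosen with earlier results of these data known. Lists of other m6A genes and of epithelial and mesenchymal markers, and the level of COPS7B, were not analysed here, because the tables used do not pair Ensembl identifiers with names.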

Additional observations from a re-analysis of the deposited data

Results flagged for a closer look

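The TE of 3 genes differed among HCT116, HCT15 and SW620 by edgeR's F test of the interaction of assay and line, with adjusted p = 0.000216 for YTHDF3, 0.028 for WTAP and 0.0453 for METTL14. The TE ratio of YTHDF3 was 0.00706 in HCT116, 0.292 in HCT15 and 0.554 in SW620. For WTAP it was 0.364 in HCT116, 1.06 in HCT15 and 0.183 in SW620, the last from 7 footprint counts. For METTL14 it was 0.0475 in HCT116, from 1 footprint count, 0.503 in HCT15 and 0 in SW620, where no footprint was counted. The YTHDF3 difference was called in every alternative run. The METTL14 difference was lost in DESeq2, with either other scaling, with no filter, with only the compared libraries, under the replicate block and with nearly alike pairs summed, and WTAP was lost in these except TMM over all libraries and no filter.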

How the results depend on the processing

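With 2 libraries per group, both HCT116 pairs nearly alike and SW620 footprints of 0 to 25 counts per gene, most calls lie close to what these libraries can show. The 27 calls against 841CON or the vector line gave 325 alternative values, of which 232 stayed called, 93 lost the call and 0 reversed. The 6 that held throughout were YTHDF3 footprints and TE, METTL14 footprints and ALKBH5 footprints in HCT116, and YTHDF1 RNA and footprints in HCT15. Counts called among the 9 genes moved by over 1.5 times as follows. With nearly alike pairs summed, they were 0 (1 in the model of all libraries), 3 (6) and 1 (4) for RNA, footprints and TE in HCT116. In HCT15 they were 1 (4) for footprints and 0 (1) for TE. In SW620 they were 1 (3), 0 (4) and 0 (2), for COPS7B RNA 0 (1), and among the lines 0 (3), 3 (6) and 1 (3). With only the compared libraries they were 0 for HCT116 RNA, 1 for HCT15 footprints, 0 for HCT15 TE, 1 for SW620 RNA, 0 for SW620 TE, 3 for COPS7B RNA, 1 (0) for COPS7B footprints and 1 for TE among the lines. The replicate block gave 0 for HCT15 TE, 1 for SW620 TE and 1 for TE among the lines, and changed no other count by over 1.5 times. DESeq2 gave 2 for HCT15 TE, 1 for SW620 TE and 3 for COPS7B RNA. TMM over all libraries gave 0 for HCT15 TE and 2 for COPS7B RNA, and no TMM gave 0 for HCT15 TE and 1 for SW620 TE. No filter gave 0 for HCT15 TE, 1 for SW620 RNA, 2 for SW620 footprints and 0 for COPS7B RNA. Leaving out each library in turn gave 0 to 1, 4 to 5 and 4 to 6 for RNA, footprints and TE in HCT116. In HCT15 it gave 1 to 1, 2 to 3 and 0 to 2, and in SW620 1 to 3, 1 to 3 and 1 to 3. It gave 0 to 0 for COPS7B RNA, 0 to 2 for vector footprints, and 0 to 3, 4 to 6 and 1 to 3 among the lines. Summing pairs leaves fewer libraries, and the cause of the other moves was not tested. Length-scaled levels were not run, for want of exon lengths.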

Other observations

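Across the 12 INPUT libraries, the tested genes whose RNA pattern was most like that of METTL3 were ENSG00000139668 (Pearson's r = 0.875) and ENSG00000061938 (r = 0.850), and those most like YTHDF1 were ENSG00000134909 (r = 0.966) and ENSG00000093000 (r = 0.961). These are descriptions over libraries that share populations and scaling, of the highest values among 11938 tested genes.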
